A study of Homo sapiens with 8 samples.

Results

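The liver X receptors and the genes that carry sterols and remodel phospholipids under their control were examined in HepG2 hepatoma cells that overexpress the cytochrome CYP2C19. The members were 8 of the 60230 genes of the count table, taken by symbol: the receptors NR1H3 and NR1H2, the transporters ABCA1, ABCG1, ABCG5 and ABCG8, the phosphodiesterase SMPDL3A and the acyltransferase LPCAT3. RNA was sequenced from cells treated for 24 h with compound 4 (labelled metylcresol), compound 5 (tetrabut), compound 6 (cyclohexil) or the vehicle DMSO, with 2 libraries in each of the 4 groups, labelled day 1 and day 2 (replicates 1 and 2 here). The compounds are phenolic antioxidants used in plastics, and each was given at its own IC50, so the concentrations were not equal. The study describes the IC50 values of these compounds as rather comparable. Compounds 4 and 6 are bis-methylphenols joined through a methylene bridge. Compound 4 carries tert-butyl groups where compound 6 carries cyclohexyl groups, whereas compound 5 has an ethane-derived bridge and a tert-butyl group also in place of the methyl group on each ring. All groups, DMSO included, carried the CYP2C19 transgene in 1 established cell line under blasticidin, and libraries from parental HepG2 cells were not analysed here.

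Liver X receptors are nuclear receptors that pair with retinoid X receptors on DNA and are switched on by oxysterols, the oxidized forms of cholesterol. In liver they lie opposite the SREBP2 pathway: SREBP2 raises cholesterol synthesis and uptake when sterol is scarce, while liver X receptors raise export, bile secretion and fatty acid synthesis when sterol is plentiful. ABCA1 passes cholesterol and phospholipid to apolipoprotein A1, ABCG1 passes cholesterol to formed lipoprotein particles, and ABCG5 and ABCG8 form 1 transporter that secretes sterol into bile.

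The classical binding element of these receptors is a direct repeat of the half-site AGGTCA with 4 bases between the repeats (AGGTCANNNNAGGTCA). It was searched for on both strands in the RefSeq promoter windows of build GRCh38.p14, which run from 250 bases before to 50 bases after a transcription start and were given for 6 of the 8 members, without ABCG1 and SMPDL3A. The nearest match in ABCA1 is shown first because ABCA1 gave the largest decrease against DMSO among the members, and those in ABCG8 and LPCAT3 are shown for contrast. The half-sites are in capitals and the spacer in lower case, each written 5′ to 3′ on the strand of the match.
ABCA1: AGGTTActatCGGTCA
ABCG8: AGGGACtccgGGGTCA
LPCAT3: AGGTAGgaagAGGGCG
The ABCA1 match had 2 mismatches over the 12 half-site bases and lay at chr9:104928209-104928224, 69 to 54 bases before the RefSeq start, on the strand opposite to the gene. In the GENCODE 29 annotation its 16 bases fall within an exon of a longer ABCA1 transcript. A match with at most 2 mismatches was present in 2.34% of the 35116 RefSeq promoter windows. The ABCG8 match, at chr2:43838782-43838797 in an intron of the GENCODE gene, and the LPCAT3 match, at chr12:7018616-7018631 outside the gene, each had 4 mismatches. At most 4 mismatches were found in 72.5% of all windows, so matches of that kind were common. These letters describe the windows and no binding was measured.

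All libraries had the character of liver cells: each of the 10 hepatocyte markers was detected, with a summed level of 33598.5 to 51216.6 CPM per library (CPM are counts scaled to library size with TMM factors). That sum was 47492.8 to 51216.6 CPM in DMSO and 33598.5 to 42607.3 with the compounds. With compound 4, 3 of the 10 markers fell and 0 rose, beside 3.91% and 5.6% of all tested genes. With compound 5, 0 fell and 1 rose, beside 2.95% and 5.35%, and with compound 6 none was called (0.575% of all tested genes). Total counts per library ran from 9791659 to 17814595, and 7 of the 8 members passed the filter on low counts that left 13400 genes for testing. CYP2C19 was detected in every library, with 27.7 and 16.4 CPM in DMSO, 31.4 and 44.3 in compound 4, 52.8 and 37.96 in compound 5 and 23.9 and 21.2 in compound 6. It was higher with compound 5 than with DMSO (log2-fold change 1.05, adjusted p = 0.0395, edgeR quasi-likelihood test, Benjamini-Hochberg adjusted). With compound 4 its log2-fold change was 0.79, called by DESeq2 but not by edgeR, and with compound 6 it was 0.04. The part of the CYP2C19 level in the results below was not tested.

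Against DMSO, ABCA1 fell with compounds 4 and 5, SMPDL3A rose with compound 4, and no other member passed the threshold of an adjusted p of 0.05. Thus 2 of the 7 tested members were called with compound 4, where 9.51% of all tested genes were called, 1 with compound 5 (8.3% of all tested genes) and none with compound 6 (0.575%). With compound 6, 3 members had an unadjusted p under 0.05 in the edgeR test (18.6% of all tested genes). DESeq2 called 1, SMPDL3A, beside 547 of the 13400 tested genes. The fit with the replicate block called the same 1 (0.507% of all tested genes). The median log2-fold change of the 7 members was 0.12 with compound 4, −0.30 with compound 5 and 0.12 with compound 6, beside 0.01, 0.00 and 0.02 over all tested genes. The 3 comparisons share the same DMSO libraries. In these bulk samples, less RNA of a gene per cell and fewer cells expressing it cannot be told apart. The labels do not state separate cultures beyond the day, so the p-values measure only the spread between these samples.

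**Figure D1:**
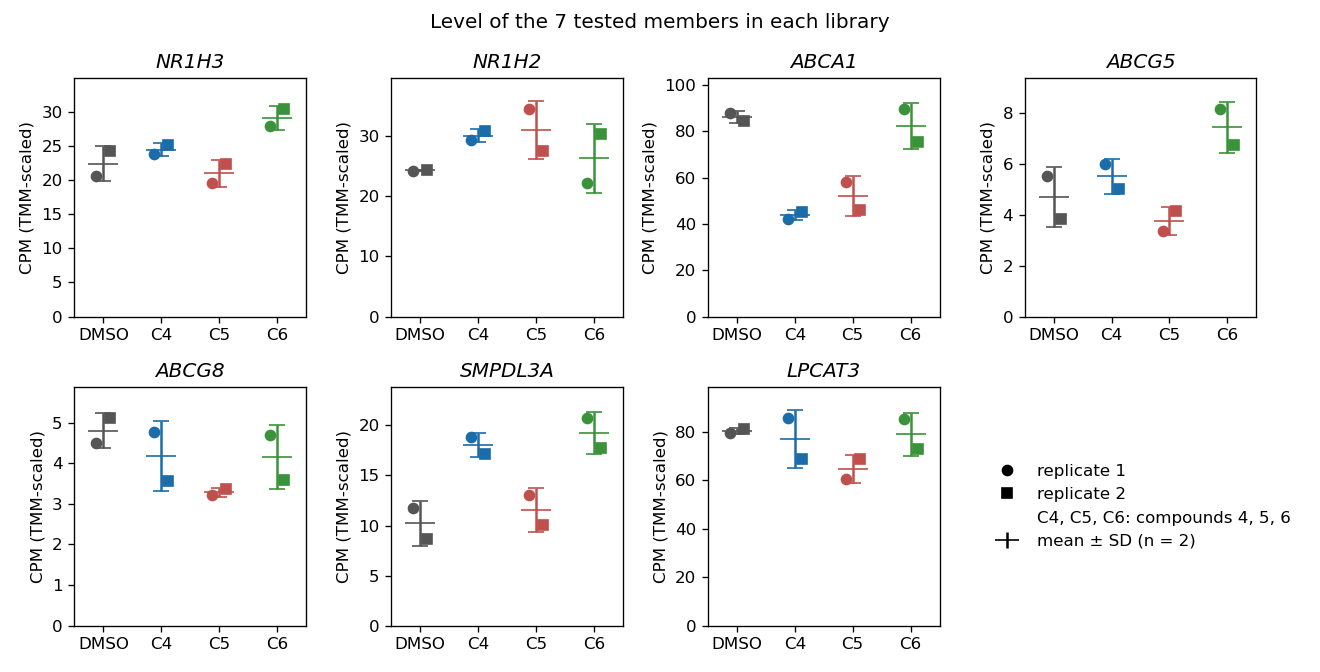
Level of the 7 tested members (CPM after TMM scaling, linear axes from 0) in DMSO and with compounds 4, 5 and 6 (C4, C5, C6), with each library as a point and the mean ± SD (n = 2) as a bar. ABCA1 lies at 42.1 to 58.2 CPM in the 4 libraries of compounds 4 and 5 and at 75.2 to 89.4 CPM in the other 4, and SMPDL3A lies highest with compounds 4 and 6.

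The receptors come first. NR1H3, which encodes LXRα, the form enriched in liver, had 20.6 and 24.2 CPM in DMSO, 23.7 and 25.2 with compound 4, 19.6 and 22.4 with compound 5 and 27.9 and 30.3 with compound 6. Only the compound 6 libraries lay wholly outside the DMSO range, above it. Its log2-fold change with compound 6 was 0.37 (95% confidence interval 0.07 to 0.68, adjusted p = 0.19, edgeR quasi-likelihood test, Benjamini-Hochberg adjusted), so it was not called, and its values with compounds 4 and 5 were 0.12 and −0.09. NR1H3 shares 189 exonic bases with ACP2 on the opposite strand, and use of the strand in counting is not known here. NR1H2, which encodes the broadly expressed LXRβ, had 24.2 and 24.4 CPM in DMSO, 29.3 and 30.8 with compound 4, 34.4 and 27.5 with compound 5 and 22.3 and 30.3 with compound 6. The libraries of compounds 4 and 5 all lay above DMSO and those of compound 6 lay on either side of it. None of these NR1H2 differences was called, with log2-fold changes of 0.31, 0.35 and 0.12 and adjusted p-values of 0.274, 0.204 and 0.756 (edgeR quasi-likelihood test, Benjamini-Hochberg adjusted).

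ABCA1, on chromosome 9 from 104781002 to 104928237 on the minus strand of GRCh38, had 87.9 and 84.4 CPM in DMSO, 42.1 and 45.2 with compound 4, 58.2 and 46.0 with compound 5 and 89.4 and 75.2 with compound 6. Every library of compounds 4 and 5 lay below every library of DMSO and compound 6, and the DMSO and compound 6 libraries overlapped. The means were 86.2 ± 2.49 CPM in DMSO, 43.7 ± 2.20 with compound 4, 52.1 ± 8.60 with compound 5 and 82.3 ± 10.0 with compound 6 (SD, n = 2), from 449 to 1008 counts per library. With compound 4 the level was 1.97-fold lower than in DMSO (log2-fold change −0.98, SE 0.14, adjusted p = 0.00563, edgeR quasi-likelihood test, Benjamini-Hochberg adjusted). With compound 5 it was 1.66-fold lower (log2-fold change −0.73, SE 0.14, adjusted p = 0.0171, same test). With compound 6 the log2-fold change was −0.07, with a 95% confidence interval of −0.38 to 0.24. Both calls rested in part on the DMSO libraries: the compound 4 call was lost without DMSO replicate 2 (adjusted p = 0.0642, log2-fold change −1.01), and the compound 5 call was lost without DMSO replicate 1 (adjusted p = 0.105, log2-fold change −0.71) or 2 (adjusted p = 0.117, log2-fold change −0.75). In such fits 1 library stands for its group and is assumed to vary like the other groups, and fewer libraries also lower the power of the test.

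SMPDL3A, a secreted nucleotide phosphodiesterase that is a known liver X receptor target in human macrophages, went the other way. It had 11.8 and 8.63 CPM in DMSO, 18.9 and 17.2 with compound 4, 13.1 and 10.0 with compound 5 and 20.7 and 17.7 with compound 6, from 103 to 226 counts per library. The libraries of compounds 4 and 6 lay above all 4 libraries of DMSO and compound 5, and those of compound 5 overlapped DMSO. SMPDL3A was 1.77-fold higher with compound 4 (log2-fold change 0.83, SE 0.20, adjusted p = 0.033, edgeR quasi-likelihood test, Benjamini-Hochberg adjusted). With compound 6 the log2-fold change of 0.92 (SE 0.20) missed the threshold in the same test (adjusted p = 0.0662) and passed it with the replicate number as a block (adjusted p = 0.0455). With compound 5 it was 0.18 (95% confidence interval −0.28 to 0.63). The compound 4 call was lost without any 1 of the 4 libraries compared. Without DMSO replicate 1 the log2-fold change was 1.06 (adjusted p = 0.0549) and without DMSO replicate 2 it was 0.61 (adjusted p = 0.265), while without compound 4 replicate 1 or 2 it was 0.75 (adjusted p = 0.107) or 0.89 (adjusted p = 0.122).

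CD68 and PDGFRB, markers of other cell types, moved with SMPDL3A, and they set the sums of their lists. The summed level of the 8 macrophage markers was 21.0 to 25.8 CPM in DMSO, 40.1 to 40.8 with compound 4, 21.2 to 26.8 with compound 5 and 30.8 to 32.4 with compound 6. Of these 8, 5 were at 0 in all libraries, and CD68, a lysosomal protein that other cells also make, accounted for most of the sum with a mean of 22.4 CPM in DMSO and 38.9 with compound 4. AIF1 went the other way at very low counts, with 10 counts over the DMSO libraries and 1 over those of compound 4. The 6 fibroblast and stellate markers summed to 5.11 to 9.22 CPM in DMSO, 23.3 to 25.4 with compound 4, 7.63 to 11.4 with compound 5 and 14.3 to 14.6 with compound 6. Here 3 of the 6 markers were at 0 throughout, and PDGFRB made up most of the sum with 7.07 CPM in DMSO and 24.2 with compound 4. The 5 endothelial markers, 2 of them at 0, did not follow: they summed to 1.26 to 1.43 CPM in DMSO, 0.912 to 1.41 with compound 4, 0.740 to 0.988 with compound 5 and 0.883 to 2.08 with compound 6. The part of these markers in the SMPDL3A result was not tested.

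LPCAT3, an acyltransferase that adds polyunsaturated fatty acids to membrane phospholipids, had 79.5 and 81.2 CPM in DMSO, 85.7 and 68.8 with compound 4, 60.7 and 69.0 with compound 5 and 85.5 and 72.9 with compound 6. The compound 5 libraries lay below DMSO and the others straddled it. The log2-fold changes were −0.06, −0.31 and −0.02, and the compound 5 value was not called (95% confidence interval −0.62 to −0.0011, adjusted p = 0.175, edgeR quasi-likelihood test, Benjamini-Hochberg adjusted). LPCAT3 shares 3100 exonic bases with EMG1 on the opposite strand, and whether the strand was used in counting is not given in the sources used here, so its level is uncertain.

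**Figure D2:**
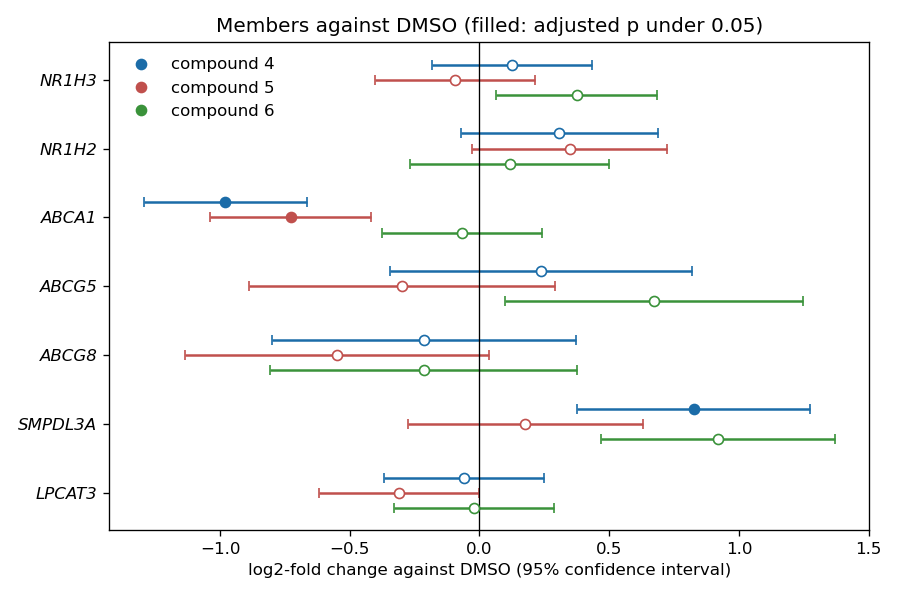
Log2-fold change of the 7 tested members against DMSO with its 95% confidence interval for compounds 4, 5 and 6. Filled points passed an adjusted p of 0.05: ABCA1 at −0.98 and −0.73 with compounds 4 and 5, and SMPDL3A at 0.83 with compound 4.

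ABCG5 and ABCG8 start 132 bases apart on opposite strands of chromosome 2 and are read away from each other. The stretch between them that holds no annotated exon of either gene, chr2:43838866-43838963 on the plus strand of GRCh38.p14, is shown because the paired genes share it.
ABCG5-ABCG8 interval: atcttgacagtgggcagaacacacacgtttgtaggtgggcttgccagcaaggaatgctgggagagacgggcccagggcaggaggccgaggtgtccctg
ABCG5 had 5.53 and 3.85 CPM in DMSO, 6.00 and 5.02 with compound 4, 3.38 and 4.15 with compound 5 and 8.14 and 6.73 with compound 6. Only the compound 6 libraries lay wholly outside the DMSO range, above it, and the log2-fold change of 0.67 was not called (adjusted p = 0.201, edgeR quasi-likelihood test, Benjamini-Hochberg adjusted). With compounds 4 and 5 it was 0.24 and −0.30. ABCG8 had 4.51 and 5.11 CPM in DMSO, 4.79 and 3.57 with compound 4, 3.21 and 3.36 with compound 5 and 4.71 and 3.60 with compound 6. Its compound 5 libraries lay below DMSO, with a log2-fold change of −0.55 (95% confidence interval −1.14 to 0.04), against −0.21 with both other compounds. No ABCG8 difference was called. At 38 to 83 counts per library, these genes had SEs of about 0.26 on the log2 scale, so changes as large as the ABCA1 change with compound 4 lay outside the 95% interval for ABCG8 with compound 4 (−0.80 to 0.37), but not for compound 5. The 2 genes also share 137 exonic bases on opposite strands.

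ABCG1 was listed at 0 in all 8 libraries and could not be tested. A count of 0 allows up to 3 counts, which was 0.171 to 0.307 CPM per library, and this limit covers counting error only. The sterol sensor INSIG1, an SREBP2 target that liver cells use, was also listed at 0 throughout, so a 0 in this table may not mean that no transcript was present.

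Counting whole groups that did not overlap, 3 members had both compound 4 libraries beyond both DMSO libraries (NR1H2, ABCA1 and SMPDL3A), 4 did so with compound 5 (NR1H2, ABCA1, ABCG8 and LPCAT3) and 3 with compound 6 (NR1H3, ABCG5 and SMPDL3A). Over all tested genes this was 58.4%, 59.5% and 55.4%, so the members were close to the background in this respect.

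Levels were compared between genes only per kb of the principal transcript. In DMSO, LPCAT3, whose level is uncertain because of its overlap with EMG1, stood at 35.4 CPM per kb, followed by NR1H2 at 12.2, ABCA1 at 8.21, NR1H3 at 8.20, SMPDL3A at 5.51, ABCG5 at 1.71 and ABCG8 at 0.669. ABCA1 and NR1H3 did not differ beyond their SDs (0.237 and 0.933 CPM per kb). The ABCG8 level would be 2.71 times higher with the median length of its coding transcripts, 2654 bases, in place of the 7186 bases of the principal one. With compound 4, ABCA1 stood at 4.16 CPM per kb, below SMPDL3A at 9.74.

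Ratios of counts within a library do not depend on library size, and the ratio of ABCA1 to SMPDL3A counts puts both changes into 1 value. It was 7.46 and 9.79 in DMSO, 2.23 and 2.63 with compound 4, 4.45 and 4.60 with compound 5 and 4.32 and 4.25 with compound 6. All 6 compound libraries lay below both DMSO libraries, and the compound 4 libraries lay below the rest. The ratio was at similar values with compounds 5 and 6, with lower ABCA1 in the former and higher SMPDL3A in the latter. The ratio of NR1H2 to NR1H3 was 1.17 and 1.01 in DMSO, 1.23 and 1.22 with compound 4, 1.76 and 1.23 with compound 5 and 0.799 and 1.00 with compound 6. Only compound 6 replicate 1 lay clearly below the other libraries, since compound 6 replicate 2 (1.00) was near DMSO replicate 2 (1.01). The ratio of ABCG5 to ABCG8 was 1.23 and 0.754 in DMSO, 1.25 and 1.40 with compound 4, 1.05 and 1.24 with compound 5 and 1.73 and 1.87 with compound 6, highest with compound 6. These ratios are given as descriptions with no test.

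**Figure D3:**
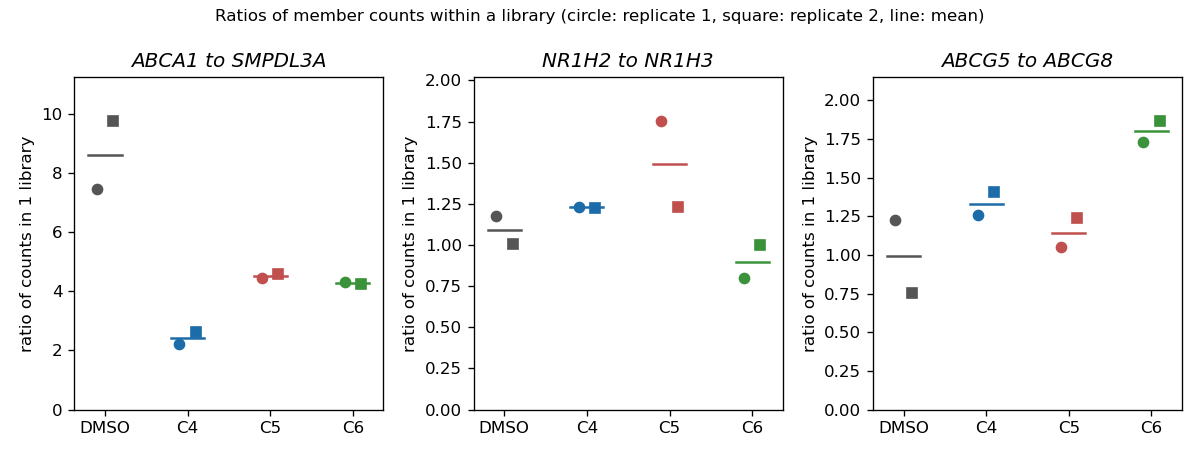
Ratio of the counts of 2 members within each library (linear axes from 0) for DMSO and compounds 4, 5 and 6, with replicate 1 as a circle, replicate 2 as a square and the mean as a line. The ratio of ABCA1 to SMPDL3A lies at 7.46 and 9.79 in DMSO and between 2.23 and 4.60 in the 6 compound libraries.

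The compounds were then compared with each other, which asks whether antioxidants of related structure differed in their effect on the members. Concentrations were not matched, since each compound was given at its own IC50. None of the 21 member tests between compounds passed the threshold in the edgeR test. Of all tested genes it called 0.313% in compound 4 against 5, 0% in compound 4 against 6 and 1.03% in compound 5 against 6. At an unadjusted p under 0.05 there were 1, 1 and 4 members in these comparisons, beside 16.2%, 7.05% and 18.5% of all tested genes. DESeq2 called 0, 1 and 1 members and 210, 59 and 379 of the 13400 tested genes, and the replicate block called 2 in compound 5 against 6 (2.01% of all tested genes). Between compounds 4 and 6 edgeR called 0 of all tested genes and 945 had an unadjusted p under 0.05.

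Compounds 4 and 6, which differ in tert-butyl against cyclohexyl groups, gave their largest difference in ABCA1. Its level was 1.88-fold lower with compound 4 (log2-fold change −0.91, 95% confidence interval −1.23 to −0.60), and the Benjamini-Hochberg adjusted p was 0.135 by edgeR and 1e-04 by DESeq2. SMPDL3A differed by −0.09 between the same compounds, with a 95% confidence interval of −0.52 to 0.34, which does not show that they act alike. For NR1H3 and ABCG5 the values were −0.25 and −0.43, both lower with compound 4 and both uncalled.

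Compounds 5 and 6 differed by −0.66 in ABCA1 (95% confidence interval −0.97 to −0.35, lower with compound 5). The Benjamini-Hochberg adjusted p of the edgeR test was 0.0583, and 0.039 once the replicate number entered as a block. SMPDL3A differed by −0.74 (adjusted p = 0.0938, or 0.042 with the block, same test), again lower with compound 5. ABCG5 differed by −0.97 (95% confidence interval −1.54 to −0.40, adjusted p = 0.0938, or 0.0843 with the block, same test), and NR1H3 by −0.47 (adjusted p = 0.121, same test). In ABCA1, SMPDL3A, ABCG5, NR1H3, ABCG8 and LPCAT3 both compound 5 libraries lay below both compound 6 libraries, that is in 6 of the 7 tested members, beside 25.1% of all tested genes. That share counts only the direction that these members showed, whereas the shares of non-overlap against DMSO count either direction.

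Between compounds 4 and 5 the largest difference was in SMPDL3A, which was 1.57-fold higher with compound 4 (log2-fold change 0.65, 95% confidence interval 0.21 to 1.08, adjusted p = 0.17, edgeR quasi-likelihood test, Benjamini-Hochberg adjusted). ABCA1 differed by −0.25 with an interval of −0.57 to 0.07, and NR1H2 by −0.04 with an interval of −0.41 to 0.33.

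Other known liver X receptor targets were taken from a list of 21 genes, of which 15 were tested. With compound 4, 5 fell and 0 rose, where 3.91% of all tested genes fell and 5.6% rose. With compound 5, 6 fell and 1 rose, beside 2.95% and 5.35% of all tested genes. With compound 6 none was called, and 6 had an unadjusted p under 0.05 in edgeR's quasi-likelihood test (18.6% of all tested genes). DESeq2 called 2 of the list there, beside 547 of the 13400 tested genes. The medians were −0.18, −0.35 and −0.07. PNPLA3, a lipid droplet hydrolase, fell with compounds 4 and 5 (log2-fold changes −2.08 and −1.95, 30.4 CPM in DMSO against 7.21 and 7.68) and stood at −0.80 with compound 6, which was not called. SCD, the stearoyl-CoA desaturase, fell by 1.38 and 1.48 on the log2 scale and stood at −0.64 with compound 6, which was not called. MLXIPL, the carbohydrate-responsive transcription factor ChREBP, fell by 0.55 and 0.49 and stood at 0.00. EEPD1, which was described as a promoter of ABCA1-dependent efflux in macrophages, rose with compound 5 (0.64) and stood at 0.49 and 0.43, uncalled, with compounds 4 and 6.

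The genes of the list differed in direction, and 10 of the 15 tested were not called with compound 4 and 8 with compound 5. Whether the falls came through the receptors was not tested. MYLIP, the ubiquitin ligase that degrades the LDL receptor, was chosen after its values were seen. It had 5.23 and 5.69 CPM in DMSO, 5.25 and 4.56 with compound 4, 2.96 and 3.19 with compound 5 and 9.32 and 9.10 with compound 6. The compound 5 libraries lay lowest and the compound 6 libraries highest, with no overlap with any other group. The difference between compounds 5 and 6 was −1.57 (adjusted p = 0.0114, edgeR quasi-likelihood test, Benjamini-Hochberg adjusted), while against DMSO the values were −0.82 with compound 5 (adjusted p = 0.0459, same test) and 0.75 with compound 6, which was not called.

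**Figure D4:**
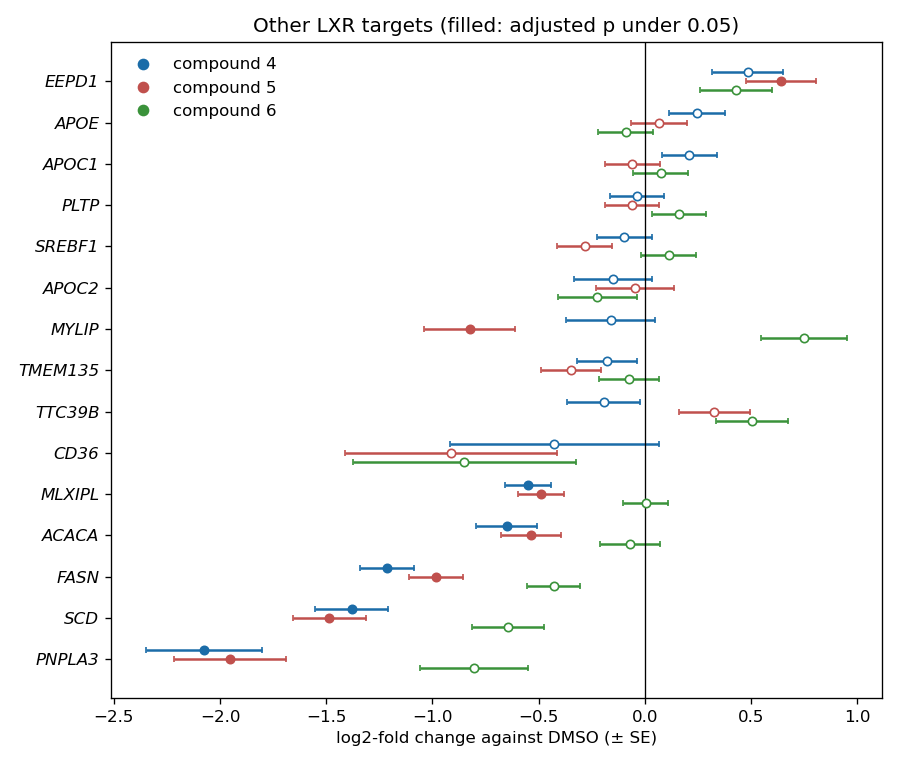
Log2-fold change against DMSO (± SE) of the 15 tested genes of the list of other liver X receptor targets for compounds 4, 5 and 6, with filled points for an adjusted p under 0.05. PNPLA3 and SCD lie lowest with compounds 4 and 5, and MYLIP lies at −0.82 with compound 5 and at 0.75 with compound 6.

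The partners and coregulators of the receptors stayed within the threshold. Of 17 listed genes 16 were tested, and none was called with any compound by edgeR's quasi-likelihood test or by DESeq2, with 1, 3 and 1 genes at an unadjusted p under 0.05 for compounds 4, 5 and 6, beside 27.5%, 28.4% and 18.6% of all tested genes. The highest value was 0.58 for the deacetylase SIRT1 with compound 5, and the lowest was −0.34 for the corepressor subunit HDAC3 with compound 4. RXRA, a retinoid X receptor, had 78.4 ± 1.35 CPM in DMSO and 81.5 ± 1.41, 88.0 ± 2.02 and 70.4 ± 1.33 with compounds 4, 5 and 6 (SD, n = 2).

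Among 14 genes that make, move or store oxysterols and sterols, 9 were tested. With compound 4, 4 fell and 0 rose (3.91% and 5.6% of all tested genes), and with the replicate block NCEH1, a cholesteryl ester hydrolase, was called as well, at a higher level (log2-fold change 0.51, adjusted p = 0.0863, or 0.0307 with the block, edgeR quasi-likelihood test). STARD4, a cholesterol carrier in the cytosol that SREBP2 drives, fell with compounds 4 and 5 (−1.01 and −1.41). The lysosomal lipase LIPA, which frees cholesterol from its esters, fell with compound 4 (−0.66), as did the cholesterol esterifying enzymes SOAT1 (−0.49) and SOAT2 (−0.43). With compound 5 STARD4 was the only gene called without the block (8.3% of all tested genes), and the block added the oxysterol-binding protein OSBP, at a higher level (0.43, adjusted p = 0.0554, or 0.0487 with the block, edgeR quasi-likelihood test). With compound 6 none was called by edgeR's quasi-likelihood test or by DESeq2, with 2 at an unadjusted p under 0.05 (18.6% of all tested genes). CYP27A1, which makes an oxysterol ligand of the receptors, had log2-fold changes of −0.04, 0.06 and −0.17, none called.

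Among 14 other exporters and acceptors of sterol, 10 were tested. With compound 4, 1 rose and 2 fell, beside 5.6% and 3.91% of all tested genes, and with compound 5, 1 rose and 2 fell, beside 5.35% and 2.95%. GRAMD1A, which returns plasma membrane cholesterol to the endoplasmic reticulum, rose with compounds 4 and 5 (0.91 and 0.62) and stood at 0.82 with compound 6 (adjusted p = 0.0541, edgeR quasi-likelihood test, Benjamini-Hochberg adjusted). APOA1, the acceptor that ABCA1 loads, fell with compound 4 (−0.90). Its value with compound 6 was −0.91 (adjusted p = 0.051, or 0.0439 with the replicate block, same test). LCAT, which esterifies cholesterol on the particle, fell with compound 4 (−0.93), and ABCA7, a close relative of ABCA1, fell with compound 5 (−0.61). Mean levels in DMSO and with compounds 4, 5 and 6 were 3417, 1837, 2391 and 1814 CPM for APOA1. For LCAT they were 35.9, 19.0, 23.4 and 22.4 CPM, and for ABCA7 38.3, 33.1, 25.0 and 39.8 CPM. With compound 6 none was called by edgeR, 4 had an unadjusted p under 0.05 (18.6% of all tested genes) and DESeq2 called 3 (547 of the 13400 tested genes). Among 12 phospholipid remodelling enzymes related in function to LPCAT3 or SMPDL3A, 8 were tested. The only call was SMPD4, a neutral sphingomyelinase, with −0.36 for compound 4, under which 3.91% of all tested genes fell. With compounds 5 and 6, 0 and 1 had an unadjusted p under 0.05 in edgeR's test (28.4% and 18.6% of all tested genes). DESeq2 called none of them with compounds 5 and 6, beside 1349 and 547 of the 13400 tested genes.

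For reference, the opposite arm of sterol control moved further than the members did. Of 8 SREBP2 genes 7 were tested, and 6 fell with compound 4, 6 with compound 5 and 3 with compound 6. Over all tested genes 3.91%, 2.95% and 0.0821% fell and 5.6%, 5.35% and 0.493% rose. The medians of the 7 tested SREBP2 genes were −1.91, −1.84 and −0.997. HMGCS1, which commits acetyl groups to sterol synthesis, fell by 2.17, 2.22 and 1.14 on the log2 scale. SQLE, the squalene epoxidase, fell by 0.997 on the log2 scale with compound 6 (adjusted p = 0.0478, or 0.0512 with the replicate block, edgeR quasi-likelihood test, Benjamini-Hochberg adjusted). ABCA1 fell with the compounds under which the SREBP2 genes fell most, and stood near DMSO with compound 6, under which HMGCS1 and SQLE still fell.

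The genes whose level followed ABCA1 most closely over the 8 samples were ZNF429 (Pearson r = 0.971), ZNF121 (0.968) and U2SURP (0.963), on log2 CPM with 0.5 CPM added. The samples of 1 group share a treatment, so these values describe the pattern over 4 groups.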

How the data were processed

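RNA from 8 samples of CYP2C19-overexpressing HepG2 cells was sequenced from directional libraries. According to the study's methods and processing notes, the authors checked reads with FastQC 0.12.0, quantified them with Salmon 1.5.0, summarized them to genes with tximeta and tested them with DESeq2 1.38.3. The table deposited by the authors holds estimated counts (expected counts, not normalized) for 60230 genes, which are whole numbers and were used as such. The labels of DMSO replicate 1 and compound 4 replicate 1 read merged, with 2 codes each, and do not say what was merged. Salmon divides reads shared by similar transcripts, and use of the strand is not given in the sources used here.

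Analysis used edgeR 4.0.16 under R 4.3.3, with TMM factors and filterByExpr (minimum count 10). All 8 samples and 13400 genes entered a single quasi-likelihood fit with no block, and Benjamini-Hochberg adjustment ran over every tested gene with a threshold of 0.05. DESeq2 1.42.0 was an alternative. CPM are TMM-scaled. Fitted intervals are 95% intervals. With 2 libraries against 2 no permutation test can pass the threshold, so none was run. The test was checked on simulated data, in which the changes that were set were larger than the member changes called here.

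The day in the labels pairs same-numbered libraries. Deviations of same-numbered libraries correlated between groups at r = −0.16 to 0.30 over 6 pairs of groups. Blocked values are given where they change the call of a member or of a gene named from a list.

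Symbols were matched for 60089 gene identifiers. Positions and lengths come from GENCODE 29 on GRCh38, and promoter sequences from RefSeq. Members and lists were chosen with earlier results of these data known, and the lists were written by hand. All members were named. From each list the text names the genes past the threshold against DMSO if 4 or fewer, otherwise the 2 highest and 2 lowest of them, or the highest and lowest where none passed, together with CYP2C19 and the 3 genes most like ABCA1. One gene that this rule takes is not reported here. RXRA, CYP27A1, NCEH1, OSBP, MYLIP and SREBF1 were named beside these after their values were seen. Alternatives were DESeq2, other normalization and filters, the replicate block, a fit restricted to the 4 samples of a comparison, leaving out each library, and, chosen after seeing the data, library totals without normalization factors.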

Additional observations from a re-analysis of the deposited data

How the results depend on the processing

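In edgeR, 3 member results were called over the 6 comparisons. The total was 6 with DESeq2, 6 with the replicate block, 9 without a filter on low counts and 5 with library totals alone, a setting chosen after seeing the data. The compound 6 comparison with DMSO had 0 calls in edgeR and 1 with each of DESeq2, the replicate block, no filter, library totals and only the 4 samples compared, which was SMPDL3A (adjusted p from 0.000262 to 0.465 over its alternatives). Between compounds 4 and 5 the count rose to 1 without a filter, and between compounds 4 and 6 to 1 with DESeq2 or without a filter. Between compounds 5 and 6 it rose to 1 with DESeq2, 1 with at least 10 counts in every library, 1 with library totals, 2 with the replicate block and 3 without a filter. Leaving out 1 library in turn gave 0 to 2 calls with compound 4, 0 to 1 with compound 5, 0 to 1 with compound 6, 0 to 1 between compounds 4 and 6, and 0 to 5 in total. The ABCA1 decrease passed in 14 of 15 tested alternatives with compound 4 (adjusted p 1.25e-09 to 0.0642) and in 13 of 15 with compound 5 (2.21e-05 to 0.117), and the SMPDL3A increase with compound 4 in 11 of 15 (0.000777 to 0.265), always in the same direction. The block changed no call of a member beyond SMPDL3A with compound 6 and ABCA1 and SMPDL3A between compounds 5 and 6. Among the hepatocyte markers the block added AFP with compound 5 (log2-fold change −0.48) and TF with compound 6 (−0.57). The cause of these differences was not tested. Over all tested genes, edgeR and DESeq2 called 77 and 547 with compound 6, 42 and 210 between compounds 4 and 5, and 138 and 379 between compounds 5 and 6. Of the other exporters and acceptors DESeq2 called 5 with compound 5 against 3 in edgeR, beside 1349 and 1112 of the 13400 tested genes. Leaving out replicate 1 or 2 of every group left no residual degrees of freedom and gave values with no test.

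Sign changes occurred only in uncalled member results. Leaving out 1 library or 1 replicate number, the log2-fold change against DMSO ran from −0.0092 to 0.51 for ABCG5, from −0.53 to 0.082 for ABCG8 and from −0.25 to 0.103 for LPCAT3 with compound 4, from −0.709 to 0.095 for ABCG5, from −0.21 to 0.033 for NR1H3 and from −0.033 to 0.402 for SMPDL3A with compound 5, and from −0.207 to 0.057 for ABCA1, from −0.519 to 0.049 for ABCG8, from −0.17 to 0.092 for LPCAT3 and from −0.133 to 0.309 for NR1H2 with compound 6. Between compounds 4 and 6 it ran from −0.218 to 0.217 for ABCG8, from −0.205 to 0.112 for LPCAT3, from −0.0045 to 0.43 for NR1H2 and from −0.203 to 0.032 for SMPDL3A, between compounds 4 and 5 from −0.24 to 0.16 for NR1H2 and from −0.0046 to 0.491 for LPCAT3, and between compounds 5 and 6 from −0.137 to 0.644 for NR1H2. With library totals ABCG8 between compounds 4 and 6 stood at −0.018 and NR1H2 between compounds 4 and 5 at 0.012. Depth limited ABCG5 and ABCG8 most, with 38 to 83 counts per library.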
